A study of Homo sapiens with 12 samples.

Results

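The genes described here are 44 interferon-stimulated genes, a list of well-known targets of interferon chosen by name. This list and the pathway lists below were chosen with earlier results of these data known. The shares of them that changed are descriptions, with no test. Expression was measured in OCI-Ly7, an established human line of diffuse large B-cell lymphoma, a cancer of B lymphocytes. The cells were exposed for 24 hours to 1 μM PLS-123, 10 μM ibrutinib, 1 μM ibrutinib or vehicle, and 3 samples of each group were read, each on its own Affymetrix U133 Plus 2.0 array. PLS-123 and ibrutinib both bind covalently to Btk, the kinase that carries the signal of the B-cell receptor into the cell. No label tells if a group's samples came from independent cultures, so the p-values measure only the spread between these samples, which may be technical.

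The array reads a gene through probe sets, groups of short probes that match part of its transcript. Each gene is represented by the brightest probe set that the array annotation gives to that gene alone. Of the 44 listed genes, 43 had such a probe set, out of 19775 genes in all, and STAT2 was not analysed here. Values are log2 intensities, and a log2 fold change of 1 is a doubling of the signal. A probe set was called dim when its mean over the 12 arrays was under 3.87, the median of all probe sets. Of the 43 genes, 23 were not dim and 20 were dim, and the dim genes are reported apart. Fold changes are given with their standard error from 3 arrays per group. All groups entered 1 limma fit, a change means an adjusted p under 0.05 over all 54613 probe sets tested, and the comparisons against vehicle share the same 3 vehicle arrays.

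Interferons are secreted proteins that warn cells of infection. Type I and type III interferons act through receptors, JAK kinases and STAT proteins, which together with IRF9 form a complex that binds the interferon-stimulated response element (ISRE) of target promoters. Interferon gamma acts mainly through STAT dimers, which bind the gamma-activated site (GAS), and several of the genes below, such as IRF1, carry that site. The products block viral entry, translation and replication, or sense viral nucleic acid.

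The promoters of 6 genes are shown because these genes changed: PARP12, IFITM1 and IRF1 rose with PLS-123, whereas BST2, ISG15 and IRF9 fell. Each line gives the 150 bases before the transcription start from RefSeq (GRCh38.p14), written in the direction of the gene. Capitals mark matches to the ISRE letters GAAANNGAAA on either strand, or to the GAS letters TTCNNNGAA, where N is any base. The windows lie at chr7:140062952-140063101 on the minus strand for PARP12, chr11:313890-314039 on the plus strand for IFITM1, chr5:132490774-132490923 on the minus strand for IRF1, chr19:17405631-17405780 on the minus strand for BST2, chr1:1013347-1013496 on the plus strand for ISG15 and chr14:24161115-24161264 on the plus strand for IRF9.
PARP12: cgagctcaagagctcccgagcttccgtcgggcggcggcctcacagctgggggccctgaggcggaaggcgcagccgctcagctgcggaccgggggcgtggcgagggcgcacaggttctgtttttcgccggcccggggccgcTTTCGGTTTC
IFITM1: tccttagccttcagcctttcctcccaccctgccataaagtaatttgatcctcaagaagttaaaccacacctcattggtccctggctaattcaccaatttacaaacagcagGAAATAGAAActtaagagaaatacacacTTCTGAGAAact
IRF1: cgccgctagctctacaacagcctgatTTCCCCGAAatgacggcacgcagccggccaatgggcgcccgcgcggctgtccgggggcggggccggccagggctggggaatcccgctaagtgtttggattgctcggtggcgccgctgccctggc
BST2: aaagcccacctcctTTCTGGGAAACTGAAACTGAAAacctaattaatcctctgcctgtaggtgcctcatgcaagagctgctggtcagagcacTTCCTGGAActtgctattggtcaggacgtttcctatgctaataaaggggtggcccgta
ISG15: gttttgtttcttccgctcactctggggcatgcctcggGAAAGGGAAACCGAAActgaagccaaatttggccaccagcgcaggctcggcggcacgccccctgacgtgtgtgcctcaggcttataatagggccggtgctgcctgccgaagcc
IRF9: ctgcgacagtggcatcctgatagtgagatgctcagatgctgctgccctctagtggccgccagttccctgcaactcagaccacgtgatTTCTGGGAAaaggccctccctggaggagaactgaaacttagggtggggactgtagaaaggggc

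In PARP12 the ISRE letters stand on the opposite strand and end at the base before the start. BST2 and ISG15, which fell, each held a pair of overlapping ISRE matches, and in BST2 a GAS match overlapped the first of them. IRF1 and IRF9 held only a GAS match in these windows. Over windows of 300 bases, 250 before the start and 50 after it, 34 of the 43 genes could be searched. The ISRE letters were present in 24 of the 34 (70.6%), against 4.38% of 27305 genes in all, and the GAS letters in 12 (35.3%), against 9.38% in all. ISRE matches were found in 4 of 7 searched genes that rose with PLS-123, 3 of 4 that fell and 17 of 23 that were not called, dim genes included. GAS matches were found in 4 of the 7 (57.1%), 3 of the 4 (75%) and 5 of the 23 (21.7%). Among the 18 searched genes above the dim limit, called or not, 11 (61.1%) held ISRE and 8 (44.4%) GAS matches. These shares are descriptions of small classes with no test, and a match describes the sequence, not binding.

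Across the whole series, all 7 B-cell markers analysed were well above the dim limit. Most T and NK cell and myeloid markers were dim, but only 5 of 10 stromal and epithelial ones were. Of 9 T and NK cell genes, 7 were dim and 2 lay above the limit. Of 7 myeloid genes, 5 were dim and 2 lay above it. The summed linear intensity of the T and NK cell genes was 93.2 to 111.2 with PLS-123, 91.1 to 96.8 with 10 μM ibrutinib, 91.3 to 92.7 with 1 μM ibrutinib and 91.5 to 97.9 with vehicle. That of the myeloid genes lay between 61.9 and 69.7 on all arrays. Of 10 stromal and epithelial genes, 5 were dim, and their sum was 520.1 to 570.7 with PLS-123, 462.5 to 489.1 with 10 μM ibrutinib, 525.5 to 545.0 with 1 μM ibrutinib and 515.9 to 567.7 with vehicle. The ACTB control probe sets, whose 3′ to 5′ log2 difference reflects RNA quality, differed by 2.93 ± 0.20 in the PLS-123 group, 2.74 ± 0.08 at 10 μM ibrutinib, 2.67 ± 0.18 at 1 μM ibrutinib and 2.64 ± 0.04 in vehicle (SD, n = 3 arrays each). For the GAPDH control probe sets this difference was 0.45 ± 0.02 in the PLS-123 group, 0.39 ± 0.01 at 10 μM ibrutinib, 0.27 ± 0.03 at 1 μM ibrutinib and 0.31 ± 0.04 in vehicle (SD, n = 3 arrays each). The 6 arrays of PLS-123 and 10 μM ibrutinib, at 0.38 to 0.47, were all above the other 6, at 0.24 to 0.35, the same split of arrays as in several genes below. A fit with the ACTB difference as a covariate was run, and the calls of listed genes that it ended are given beside those genes. Over all probe sets it called 1552 higher and 1928 lower with PLS-123 against vehicle, where the main fit called 3476 and 5664. For 10 μM ibrutinib against vehicle it called 2645 and 2109, where the main fit called 2944 and 2523. The background shares below are from the main fit. The part of the GAPDH difference in the results was not tested.

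With PLS-123, 8 of the 23 genes above the dim limit rose and 3 fell. The risers were IRF1, PARP12, MX1, SAMD9L, IFITM1, OAS1, OAS2 and TRIM22, and the genes that fell were BST2, IRF9 and ISG15. The share that rose was 34.8%, against 11.2% of all genes above the dim limit, and the share that fell was 13%, against 19.8%. Over all probe sets 16.7% changed. The median log2 fold change of the 23 genes was 0.21, against -0.06 for all genes above the dim limit.

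With 10 μM ibrutinib, 5 of the 23 rose, namely PARP12, IRF1, MX1, OAS2 and IFITM1, and BST2 and ISG15 fell. These were 21.7% and 8.7% of the 23, against 10.4% and 9.03% of all genes above the dim limit, so the share that fell was near the background. Over all probe sets 10% changed. The median was 0.09, against -0.01 for all genes above the dim limit. With 1 μM ibrutinib none of the 43 genes changed by limma or by any alternative test run. Over all probe sets the main fit called 0%, while limma with an intensity trend called 7 higher and 6 lower. A fit to the median over probe sets of each gene called 1 gene higher. At an unadjusted p under 0.05 the count was 1 of the 23 and 2 of the 20 dim genes, against 2943 of all 54613 probe sets. The log2 fold changes of the 23 genes at this dose lay between -0.25 and 0.28.

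**Figure D1:**
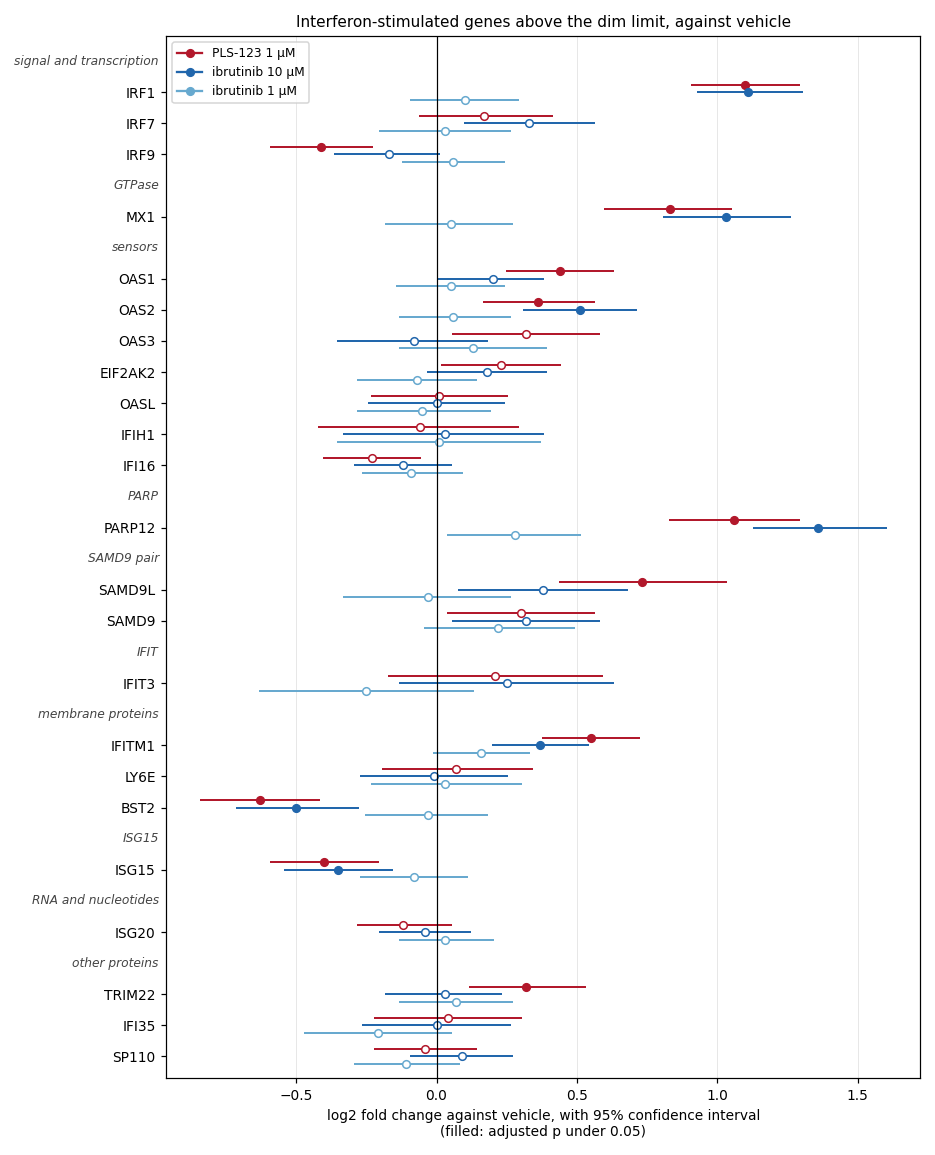
Log2 fold change against vehicle (horizontal axis) of the 23 interferon-stimulated genes above the dim limit, grouped by role, for 1 μM PLS-123, 10 μM ibrutinib and 1 μM ibrutinib. Points are limma estimates from 3 arrays per group, lines are 95% confidence intervals and filled points have an adjusted p under 0.05. IRF1, PARP12 and MX1 lie far to the right under PLS-123 and 10 μM ibrutinib, BST2 and ISG15 lie to the left, and every point of 1 μM ibrutinib is open.

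Among the transcription factors, IRF1 rose and IRF9 fell. IRF1 activates many interferon-stimulated genes on its own. Its log2 intensity was 7.69, 7.71 and 7.59 with PLS-123, 7.68, 7.78 and 7.58 at 10 μM ibrutinib, 6.64, 6.80 and 6.56 at 1 μM ibrutinib, and 6.59, 6.57 and 6.54 with vehicle. All 6 arrays of PLS-123 and 10 μM ibrutinib lay above all other arrays, and 1 μM ibrutinib overlapped vehicle. IRF1 was 2.14-fold higher with PLS-123 (log2 1.10 ± 0.09, adjusted p = 1.2e-06) and 2.17-fold higher with 10 μM ibrutinib (1.11 ± 0.09, adjusted p = 1.19e-06) than with vehicle. Its other probe set gave 1.23 ± 0.11 and 1.14 ± 0.11 for the same comparisons (adjusted p = 4.37e-06 and 1.08e-05).

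IRF9 is the DNA-binding partner in the complex that recognises the ISRE. It was at 6.14, 6.05 and 6.12 with PLS-123, 6.26, 6.36 and 6.40 at 10 μM ibrutinib, 6.53, 6.69 and 6.50 at 1 μM ibrutinib, and 6.60, 6.41 and 6.53 with vehicle. The PLS-123 arrays were the lowest without overlap, and those of 10 μM ibrutinib lay just below vehicle. The log2 fold change was -0.41 ± 0.08 with PLS-123 (adjusted p = 0.00417) and -0.17 ± 0.08 with 10 μM ibrutinib, which did not pass (adjusted p = 0.26). IRF7, the factor that amplifies interferon production, did not pass in either comparison, at 0.17 ± 0.11 (adjusted p = 0.318) with PLS-123 and 0.33 ± 0.11 (adjusted p = 0.0742) with 10 μM ibrutinib.

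**Figure D2:**
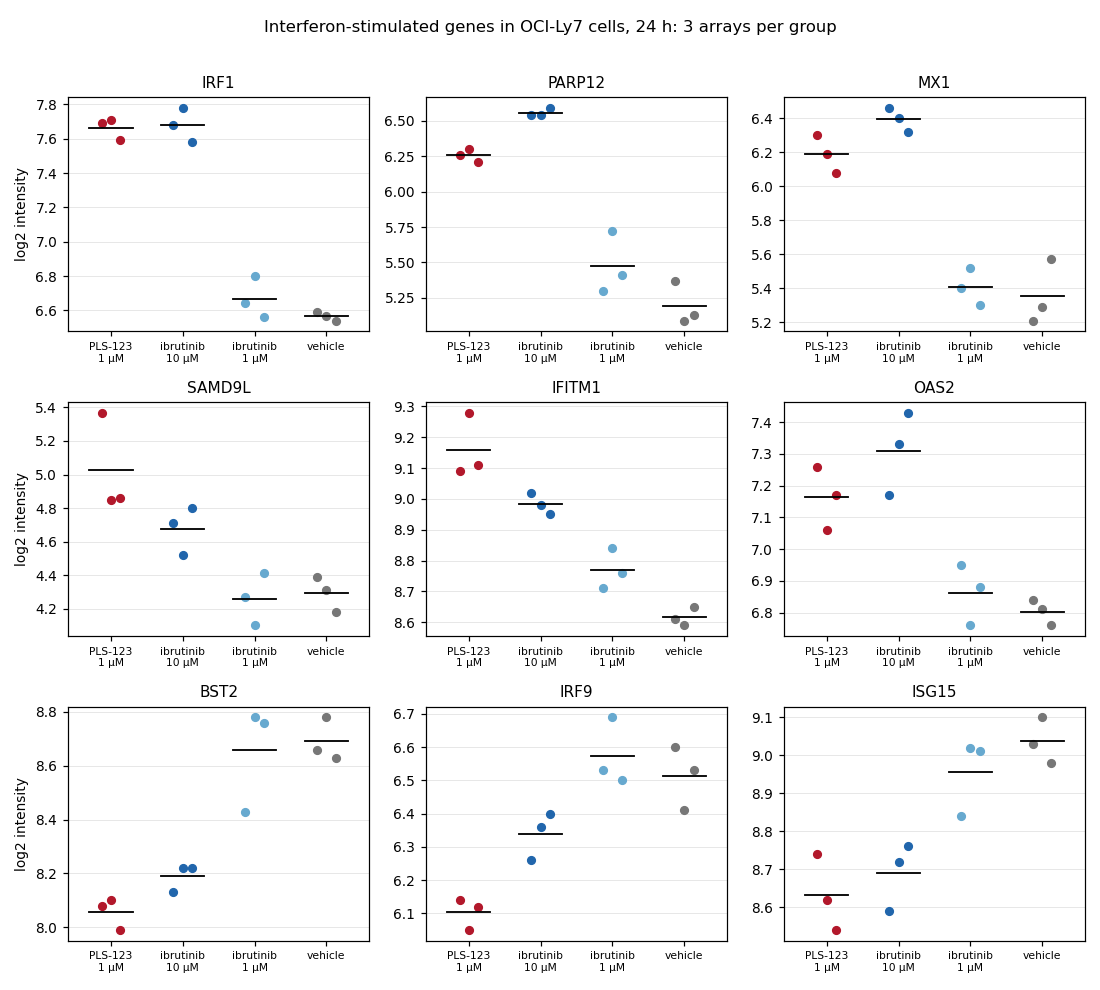
Log2 intensity (vertical axis, own scale per gene) of 9 interferon-stimulated genes on each of the 12 arrays. Points are arrays and black lines group means of 3 arrays, with PLS-123, 10 μM ibrutinib, 1 μM ibrutinib and vehicle in this order. In IRF1, PARP12, MX1, SAMD9L, IFITM1 and OAS2 the arrays of PLS-123 and 10 μM ibrutinib lie above all vehicle arrays, and in BST2, IRF9 and ISG15 below them.

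PARP12 had the highest fold change of the 23 genes with 10 μM ibrutinib. It is a mono-ADP-ribosyltransferase with antiviral activity. Its log2 intensity was 6.26, 6.30 and 6.21 with PLS-123, 6.54, 6.54 and 6.59 at 10 μM ibrutinib, 5.30, 5.72 and 5.41 at 1 μM ibrutinib, and 5.37, 5.09 and 5.13 with vehicle. The groups of PLS-123 and 10 μM ibrutinib stood clear of the others, with the 3 arrays of 10 μM ibrutinib highest. The change was 2.09-fold with PLS-123 (log2 1.06 ± 0.11, adjusted p = 1.43e-05) and 2.57-fold with 10 μM ibrutinib (1.36 ± 0.11, adjusted p = 1.46e-06). The other family members on the list, PARP9 and PARP14, were dim and gave log2 fold changes between -0.18 and 0.05 in these comparisons.

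MX1 encodes a dynamin-like GTPase that traps viral ribonucleoproteins. It read 6.30, 6.19 and 6.08 with PLS-123, 6.46, 6.40 and 6.32 at 10 μM ibrutinib, 5.40, 5.52 and 5.30 at 1 μM ibrutinib, and 5.21, 5.29 and 5.57 with vehicle. No array of PLS-123 or 10 μM ibrutinib overlapped the other groups. MX1 was 1.78-fold higher with PLS-123 (log2 0.83 ± 0.10, adjusted p = 9.24e-05) and 2.05-fold higher with 10 μM ibrutinib (1.03 ± 0.10, adjusted p = 1.49e-05).

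MX2, its paralogue, which blocks nuclear import of HIV, moved in the same direction but was dim. It read 3.82, 4.02 and 3.87 with PLS-123, 3.68, 3.39 and 3.72 at 10 μM ibrutinib, 3.25, 2.92 and 3.31 at 1 μM ibrutinib, and 2.91, 2.71 and 2.92 with vehicle. The PLS-123 arrays were all above those of the other groups, and 2.71 to 2.92 in vehicle was the lowest range, with 1 μM ibrutinib just above it. The log2 fold change was 1.06 ± 0.12 with PLS-123 (adjusted p = 3.68e-05) and 0.75 ± 0.12 with 10 μM ibrutinib (adjusted p = 0.000837). The guanylate-binding proteins GBP1 and GBP2, GTPases best known as targets of interferon gamma, were dim, with log2 fold changes between -0.21 and 0.05 and no call.

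Of 7 sensors of viral nucleic acid above the dim limit, OAS1 and OAS2 rose with PLS-123, OAS2 alone with 10 μM ibrutinib, and none fell. With PLS-123 the shares that rose and fell were 28.6% and 0%, against 11.2% and 19.8% of all genes above the dim limit. At 10 μM ibrutinib they were 14.3% and 0%, against 10.4% and 9.03%, so the share that rose was near the background. With 7 genes these shares are coarse. The OAS enzymes make short oligoadenylates that switch on RNase L. OAS1 read 8.27, 8.07 and 7.99 with PLS-123, 7.78, 7.92 and 7.90 at 10 μM ibrutinib, 7.69, 7.75 and 7.73 at 1 μM ibrutinib, and 7.61, 7.73 and 7.67 with vehicle. The PLS-123 arrays were the highest, with the arrays of 10 μM ibrutinib between them and vehicle. OAS1 changed by 0.44 ± 0.09 with PLS-123 (adjusted p = 0.00317), the value with 10 μM ibrutinib was 0.20 ± 0.09 (adjusted p = 0.212), and the second OAS1 probe set also rose with PLS-123 (0.32 ± 0.09, adjusted p = 0.0318).

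OAS2 read 7.26, 7.06 and 7.17 with PLS-123, 7.17, 7.33 and 7.43 at 10 μM ibrutinib, 6.95, 6.76 and 6.88 at 1 μM ibrutinib, and 6.84, 6.81 and 6.76 with vehicle. Both PLS-123 and 10 μM ibrutinib lay above vehicle without overlap. The log2 fold change was 0.36 ± 0.09 with PLS-123 (adjusted p = 0.0144) and 0.51 ± 0.09 with 10 μM ibrutinib (adjusted p = 0.00208). The call with PLS-123 was lost without vehicle replicate C (adjusted p = 0.0515), without PLS-123 replicate A (adjusted p = 0.0574) and with the ACTB covariate (adjusted p = 0.252). Its probe sets also disagreed, since its second brightest one gave 0.19 ± 0.09 with PLS-123 (adjusted p = 0.174) and the dimmest gave -0.16 ± 0.14 (adjusted p = 0.5). With 10 μM ibrutinib they gave 0.30 ± 0.09 (adjusted p = 0.0485) and -0.11 ± 0.14 (adjusted p = 0.738). The median over its probe sets ended the call with PLS-123 (log2 0.19, adjusted p = 0.13).

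The other 5 sensors did not pass. With PLS-123 the log2 fold change was 0.32 ± 0.12 for OAS3 (adjusted p = 0.095), 0.23 ± 0.10 for EIF2AK2, the kinase PKR that halts translation (adjusted p = 0.128), and -0.23 ± 0.08 for IFI16, a DNA sensor (adjusted p = 0.068). The other IFI16 probe sets differed in sign, at -0.05 ± 0.13 (adjusted p = 0.854) and 0.25 ± 0.16 (adjusted p = 0.339). IFIH1, the RNA sensor MDA5, gave -0.06 ± 0.17 and OASL 0.01 ± 0.11. With 10 μM ibrutinib these 5 genes ranged from -0.12 to 0.18. DDX60, a helicase linked to RNA sensing, was dim and gave 0.00 and 0.22.

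SAMD9L and SAMD9 are neighbouring genes whose products restrict poxviruses and growth. SAMD9L read 5.37, 4.85 and 4.86 with PLS-123, 4.71, 4.52 and 4.80 at 10 μM ibrutinib, 4.27, 4.10 and 4.41 at 1 μM ibrutinib, and 4.39, 4.31 and 4.18 with vehicle. The PLS-123 arrays were highest, replicate A most of all, and 10 μM ibrutinib lay between. SAMD9L was 1.66-fold higher with PLS-123 (log2 0.73 ± 0.14, adjusted p = 0.00219), and with 10 μM ibrutinib the change of 0.38 ± 0.14 did not pass (adjusted p = 0.111). The call was lost when the median of its 3 probe sets replaced the brightest (log2 0.17, adjusted p = 0.32). Its other probe sets were dim and gave 0.17 ± 0.12 (adjusted p = 0.372) and 0.38 ± 0.14 (adjusted p = 0.0869) with PLS-123. SAMD9 gave 0.30 ± 0.12 and 0.32 ± 0.12, with adjusted p = 0.119 and 0.134.

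IFITM1 and BST2 both act at membranes and moved in opposite directions. IFITM1 blocks fusion of viruses with the cell, and read 9.09, 9.28 and 9.11 with PLS-123, 9.02, 8.98 and 8.95 at 10 μM ibrutinib, 8.71, 8.84 and 8.76 at 1 μM ibrutinib, and 8.61, 8.59 and 8.65 with vehicle. The 4 groups did not overlap, in the order in which they are given. IFITM1 was 1.46-fold higher with PLS-123 (log2 0.55 ± 0.08, adjusted p = 0.000287) and 1.29-fold higher with 10 μM ibrutinib (0.37 ± 0.08, adjusted p = 0.0073). With 1 μM ibrutinib the value of 0.16 ± 0.08 did not pass (adjusted p = 0.92). IFITM1 has near-identical paralogues, and its probe set may also bind their transcripts, so the value is uncertain as to which copy it reports.

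BST2, or tetherin, holds budding virus particles on the cell surface. It read 8.08, 8.10 and 7.99 with PLS-123, 8.13, 8.22 and 8.22 at 10 μM ibrutinib, 8.43, 8.78 and 8.76 at 1 μM ibrutinib, and 8.66, 8.78 and 8.63 with vehicle. The arrays of PLS-123 and of 10 μM ibrutinib were all below the other 6. BST2 fell to 0.647 of the vehicle level with PLS-123 (log2 -0.63 ± 0.10, adjusted p = 0.000561) and to 0.709 of it with 10 μM ibrutinib (-0.50 ± 0.10, adjusted p = 0.00435). LY6E, a surface protein of the same group, gave 0.07 ± 0.12 with PLS-123 (adjusted p = 0.761). IFI6 was dim and gave -0.01 ± 0.16.

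ISG15 encodes a ubiquitin-like modifier that is joined to other proteins during an interferon response. It read 8.74, 8.62 and 8.54 with PLS-123, 8.59, 8.72 and 8.76 at 10 μM ibrutinib, 8.84, 9.02 and 9.01 at 1 μM ibrutinib, and 9.03, 9.10 and 8.98 with vehicle. All arrays of PLS-123 and 10 μM ibrutinib lay below all others. ISG15 was at 0.756 of the vehicle level with PLS-123 (log2 -0.40 ± 0.09, adjusted p = 0.00611) and at 0.785 of it with 10 μM ibrutinib (-0.35 ± 0.09, adjusted p = 0.0216). The ACTB covariate ended the call with PLS-123 (adjusted p = 0.171). The call with 10 μM ibrutinib was lost without vehicle replicate A or B (adjusted p = 0.058 and 0.0865) and without ibrutinib 10 μM replicate A or B (adjusted p = 0.0923 and 0.0549).

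The enzymes that attach and remove ISG15 were dim. HERC5, its main ligase in human cells, gave 0.49 ± 0.15 with PLS-123 (adjusted p = 0.0337), a call lost without vehicle replicate A or B (adjusted p = 0.0869 and 0.122), without PLS-123 replicate B or C (adjusted p = 0.122 and 0.066) and with the ACTB covariate (adjusted p = 0.32). HERC6, its relative, gave 0.08 ± 0.11, and USP18, the protease that removes ISG15, gave 0.19 ± 0.14.

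The IFIT proteins bind foreign RNA ends and block translation, and for IFIT3 the result depended on the probe set. The brighter one read 5.08, 4.91 and 5.02 with PLS-123, 5.19, 5.05 and 4.91 at 10 μM ibrutinib, 4.68, 4.30 and 4.65 at 1 μM ibrutinib, and 4.35, 5.23 and 4.81 with vehicle. The vehicle arrays spanned 4.35 to 5.23 and overlapped every treated group. The log2 fold change was 0.21 ± 0.18 with PLS-123 (adjusted p = 0.484) and 0.25 ± 0.18 with 10 μM ibrutinib (adjusted p = 0.469).

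The other IFIT3 probe set, described here after its values were seen, had a mean over all arrays above the dim limit. Its group means were 5.50 with PLS-123, 4.99 at 10 μM ibrutinib, 3.74 at 1 μM ibrutinib and 3.63 with vehicle, so it passed the limit only through the groups in which it was high. It read 5.72, 5.50 and 5.28 with PLS-123, 4.88, 5.0 and 5.09 at 10 μM ibrutinib, 3.70, 3.76 and 3.77 at 1 μM ibrutinib, and 3.69, 3.37 and 3.82 with vehicle. PLS-123 was highest and 10 μM ibrutinib next, both without overlap with the rest. PLS-123 gave a log2 fold change of 1.87 ± 0.13 (adjusted p = 2.64e-07) and 10 μM ibrutinib 1.36 ± 0.13 (adjusted p = 6.83e-06). IFIT2 was dim on both of its probe sets, with 0.33 ± 0.17 on the brighter one (adjusted p = 0.228) and 0.65 ± 0.13 on the other (adjusted p = 0.00286) with PLS-123. IFIT1 and IFIT5 were dim and gave -0.11 ± 0.10 and -0.03 ± 0.10.

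**Figure D3:**
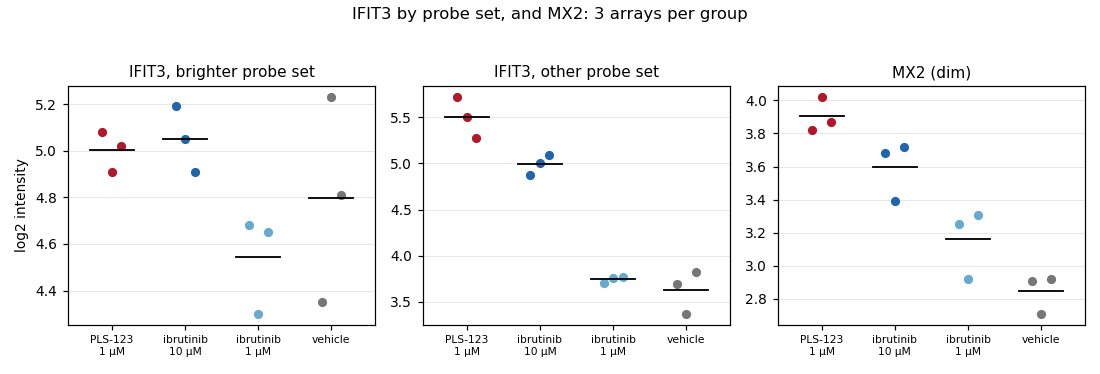
Log2 intensity (vertical axis, own scale per panel) of IFIT3 on each of its probe sets and of MX2, by array, with PLS-123, 10 μM ibrutinib, 1 μM ibrutinib and vehicle in this order. Points are arrays and black lines group means of 3 arrays. On the brighter IFIT3 probe set the vehicle arrays span 4.35 to 5.23, whereas on the other all PLS-123 arrays lie above 5.09, the highest array of 10 μM ibrutinib.

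TRIM22, an antiviral ubiquitin ligase, rose with PLS-123. It read 8.66, 8.43 and 8.44 with PLS-123, 8.26, 8.26 and 8.12 at 10 μM ibrutinib, 8.38, 8.13 and 8.26 at 1 μM ibrutinib, and 8.26, 8.13 and 8.18 with vehicle. Only PLS-123 stood above the rest. Its log2 fold change was 0.32 ± 0.09 (adjusted p = 0.0312), against 0.03 ± 0.09 with 10 μM ibrutinib (adjusted p = 0.922). The call was lost without vehicle replicate B or C (adjusted p = 0.109 and 0.078), without PLS-123 replicate A or C (adjusted p = 0.121 and 0.0501), with limma on these groups alone (adjusted p = 0.0515) and with the ACTB covariate (adjusted p = 0.242).

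The remaining genes above the dim limit did not pass on their brightest probe set. ISG20, an exonuclease of single-stranded RNA, gave -0.12 ± 0.08 with PLS-123 (adjusted p = 0.348), though its second probe set gave -0.31 ± 0.08 (adjusted p = 0.0208). SP110, a nuclear body protein, gave -0.04 ± 0.08, and IFI35, a partner of NMI, gave 0.04 ± 0.12.

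Of the 20 dim genes, 3 changed with PLS-123 (15%, against 3.88% of all dim genes) and 1 with 10 μM ibrutinib (5%, against 1.75%). These were MX2 and HERC5, given above, and IFI27, a small hydrophobic protein, at -0.37 ± 0.10 with PLS-123 (adjusted p = 0.0237). IFI27 read 2.58, 2.82 and 2.41 with PLS-123, 2.76, 2.98 and 2.82 at 10 μM ibrutinib, 2.68, 2.82 and 2.81 at 1 μM ibrutinib, and 2.99, 2.99 and 2.95 with vehicle. The arrays of 1 μM ibrutinib also lay below all vehicle arrays, at -0.21 ± 0.10, which did not pass (adjusted p = 0.92). The call with PLS-123 was lost without any 1 vehicle array (adjusted p = 0.064 for A, 0.0704 for B and 0.0514 for C) and without PLS-123 replicate A or C (adjusted p = 0.0636 and 0.112). It was also lost with limma on PLS-123 and vehicle alone (adjusted p = 0.0549) and with the ACTB covariate (adjusted p = 0.46). RSAD2 (viperin), CMPK2, XAF1, IFI44, IFI44L and EPSTI1, which rank among the most inducible targets of type I interferon, had mean log2 intensities between 1.89 and 2.26. Their log2 fold changes with PLS-123 lay between -0.06 and 0.07.

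At the matched dose of 1 μM, PLS-123 and ibrutinib differed in 10 of the 23 genes. IRF1, MX1, PARP12, SAMD9L, OAS1, IFITM1 and OAS2 were higher with PLS-123, and BST2, IRF9 and ISG15 lower. The shares were 30.4% and 13%, against 8.54% and 16.1% of all genes above the dim limit, and 12.5% of all probe sets differed. IRF1 was 2.0-fold higher (log2 1.00, 95% confidence interval 0.81 to 1.19, adjusted p = 3.86e-06), PARP12 1.72-fold (0.78, interval 0.55 to 1.02, adjusted p = 0.000271), MX1 1.72-fold (0.78, interval 0.56 to 1.01, adjusted p = 0.000192) and SAMD9L 1.70-fold (0.76, interval 0.47 to 1.06, adjusted p = 0.00209). BST2 was lower, at 0.662 of the ibrutinib level (-0.59, interval -0.81 to -0.38, adjusted p = 0.0011), and IRF9 at 0.722 of it (-0.47, interval -0.65 to -0.29, adjusted p = 0.00213).

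The differences at 1 μM were smaller for IFITM1 (0.39, interval 0.22 to 0.56, adjusted p = 0.00488), OAS1 (0.39, interval 0.20 to 0.58, adjusted p = 0.00913), ISG15 (-0.32, interval -0.51 to -0.13, adjusted p = 0.028) and OAS2 (0.30, interval 0.10 to 0.50, adjusted p = 0.0468). The ISG15 call was lost without PLS-123 replicate B or C (adjusted p = 0.0746 and 0.118) and without ibrutinib 1 μM replicate B or C (adjusted p = 0.103 and 0.105). It was also lost with limma on these groups alone (adjusted p = 0.0849), with quantile normalization (adjusted p = 0.0599), with centring on control probe sets (adjusted p = 0.0646) and with the ACTB covariate (adjusted p = 0.326). The OAS2 call was lost without vehicle replicate A, B or C (adjusted p = 0.0622, 0.0605 and 0.0621), without ibrutinib 10 μM replicate B (adjusted p = 0.0629), without ibrutinib 1 μM replicate B or C (adjusted p = 0.173 and 0.105) and without PLS-123 replicate A or C (adjusted p = 0.145 and 0.118). The same OAS2 call was lost with the median over its probe sets (log2 0.01, adjusted p = 0.959), with the ACTB covariate (adjusted p = 0.383), with limma on these groups alone (adjusted p = 0.101) and with the sample letter as a replicate block (adjusted p = 0.0686). For SAMD9L the median over probe sets ended the call (log2 0.26, adjusted p = 0.14). For the genes that did not pass, the intervals leave room for differences of some size, for example -0.43 to 0.28 for IFIH1, 0.08 to 0.84 for IFIT3 and -0.22 to 0.30 for LY6E. On its other probe set IFIT3 was 1.76 ± 0.13 higher with PLS-123 (adjusted p = 6.39e-07).

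**Figure D4:**
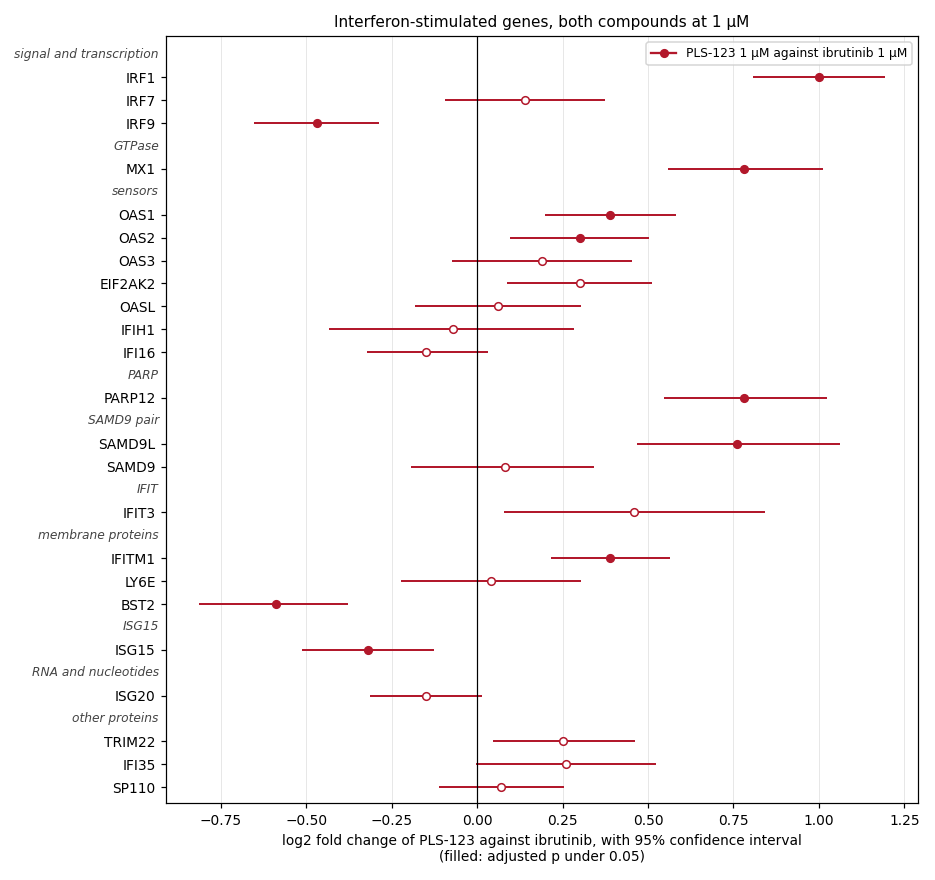
Log2 fold change of 1 μM PLS-123 against 1 μM ibrutinib (horizontal axis) for the 23 genes above the dim limit. Points are limma estimates from 3 arrays per group with 95% confidence intervals, and filled points have an adjusted p under 0.05. IRF1 stands farthest to the right at 1.00 and BST2 farthest to the left at -0.59.

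Between the doses of ibrutinib, 4 of the 23 genes were higher at 10 μM and 1 was lower (17.4% and 4.35%, against 8.11% and 7.02% of all genes above the dim limit, and 7.61% of all probe sets). PARP12 was 2.12-fold higher at 10 μM than at 1 μM (log2 1.08 ± 0.11, adjusted p = 1.65e-05), IRF1 2.02-fold (1.02 ± 0.09, adjusted p = 3.73e-06), MX1 1.98-fold (0.99 ± 0.10, adjusted p = 2.74e-05) and OAS2 1.36-fold (0.45 ± 0.09, adjusted p = 0.00665). The OAS2 call was lost with the median over its probe sets (log2 0.12, adjusted p = 0.493). BST2 was at 0.726 of its 1 μM level (-0.46 ± 0.10, adjusted p = 0.0087), a call lost without ibrutinib 1 μM replicate C (adjusted p = 0.0507). Of the dim genes only MX2 differed, at 0.44 ± 0.12 (adjusted p = 0.0394), and that call was lost without vehicle replicate A or C (adjusted p = 0.052 and 0.0521), ibrutinib 1 μM replicate A or B (adjusted p = 0.0542 and 0.159), ibrutinib 10 μM replicate A or C (adjusted p = 0.131 and 0.156) or PLS-123 replicate A or C (adjusted p = 0.0507 and 0.0546), with limma on these groups alone (adjusted p = 0.104) and with the ACTB covariate (adjusted p = 0.0688).

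PLS-123 at 1 μM and ibrutinib at 10 μM were given at unlike doses, so their values stand side by side. None of the 43 genes differed between them by limma or by any alternative test run, and 0.183% of all probe sets did in the main fit. At an unadjusted p under 0.05 the count was 7 of the 23 genes and 6 of the 20 dim ones, against 8333 of all 54613 probe sets. The log2 differences of the 23 genes, PLS-123 minus ibrutinib, ranged from -0.30 for PARP12 to 0.40 for OAS3, with adjusted p = 0.214 and 0.154. IRF1 differed by -0.02, with a 95% confidence interval of -0.20 to 0.17.

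Around the list, the interferons themselves and the genes that receive or restrain their signal were read from lists of pathway genes. The alternative tests are reported for the main list only, so calls of genes from these other lists carry no such check. All 16 interferon genes analysed, including IFNB1 and IFNG, were dim, and none changed in any comparison. Of 8 receptor and kinase genes above the dim limit, 1 rose and 3 fell with PLS-123, and 2 rose and 2 fell with 10 μM ibrutinib. With PLS-123 the shares were 12.5% and 37.5%, against 11.2% and 19.8% of all genes above the dim limit, and at 10 μM ibrutinib 25% each way, against 10.4% and 9.03%. The share that rose with PLS-123 was thus near the background. JAK1, the kinase shared by all interferon receptors, rose by 0.91 ± 0.08 with PLS-123 (adjusted p = 4.21e-06) and by 1.03 ± 0.08 with 10 μM ibrutinib (adjusted p = 1.5e-06). IFNLR1, the specific chain of the type III receptor, gave -1.41 ± 0.08 (adjusted p = 6.11e-08) and -1.13 ± 0.08 (adjusted p = 5.97e-07) in the same comparisons.

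The chains of the type I receptor fell by less. IFNAR1 gave -0.40 ± 0.08 with PLS-123 (adjusted p = 0.00302) and 0.01 ± 0.08 with 10 μM ibrutinib (adjusted p = 0.949). Their difference of -0.41 between these unlike doses did not pass (adjusted p = 0.0555). IFNAR2 gave -0.30 ± 0.08 in both comparisons (adjusted p = 0.024 and 0.0304).

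Of 13 genes that sense nucleic acid or relay the alarm above the dim limit, 3 rose and 4 fell with PLS-123, and 4 rose and 2 fell with 10 μM ibrutinib. These were 23.1% and 30.8% under PLS-123 and 30.8% and 15.4% at 10 μM ibrutinib, against the same background of 11.2% and 19.8%, and 10.4% and 9.03%. RIGI, the RNA sensor listed on the array as DDX58, rose by 0.87 ± 0.09 with PLS-123 (adjusted p = 2.33e-05) and by 0.34 ± 0.09 with 10 μM ibrutinib (adjusted p = 0.037). AIM2, a sensor of cytosolic DNA, gave -1.27 ± 0.08 with PLS-123 (adjusted p = 1.42e-07) and -0.71 ± 0.08 with 10 μM ibrutinib (adjusted p = 4.65e-05). TLR3, the endosomal sensor of double-stranded RNA, lay at the dim limit with a mean of 3.87 and rose by 0.91 ± 0.11 and 0.70 ± 0.11 (adjusted p = 4.59e-05 and 0.000547). Its group means were 4.34 with PLS-123, 4.13 at 10 μM ibrutinib, 3.57 at 1 μM ibrutinib and 3.43 with vehicle, so it is counted among the 13 only through the groups in which it was high. IRF3, which switches on interferon genes, gave -0.47 ± 0.10 with PLS-123 (adjusted p = 0.00432) and -0.30 ± 0.10 with 10 μM ibrutinib (adjusted p = 0.0755). Between PLS-123 and 10 μM ibrutinib, at unlike doses, RIGI differed by 0.54 ± 0.09 (adjusted p = 0.0404) and AIM2 by -0.56 ± 0.08 (adjusted p = 0.0135).

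Of 6 genes that restrain interferon signalling, 2 rose and 1 fell with PLS-123, and 3 rose with 10 μM ibrutinib. The shares that rose were 33.3% and 50%, against 11.2% and 10.4% of all genes above the dim limit, and the share that fell with PLS-123 was 16.7%, near the 19.8% of all genes. SOCS1, an inhibitor of JAK kinases, rose by 0.85 ± 0.08 with PLS-123 (adjusted p = 4.26e-06) and by 0.94 ± 0.08 with 10 μM ibrutinib (adjusted p = 1.77e-06). IRF2, which competes with IRF1 for DNA, rose by 0.70 ± 0.08 and 0.62 ± 0.08 (adjusted p = 5.59e-05 and 0.000197). PTPN6, the phosphatase SHP-1, gave -0.56 ± 0.11 with PLS-123 (adjusted p = 0.00231) and -0.34 ± 0.11 with 10 μM ibrutinib (adjusted p = 0.0606).

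Of 28 further interferon-induced genes above the dim limit, 8 rose and 5 fell with PLS-123, and 7 rose and 4 fell with 10 μM ibrutinib. The shares that rose were 28.6% and 25%, against 11.2% and 10.4% of all genes above the dim limit. Those that fell were 17.9% and 14.3%, against 19.8% and 9.03%, so the fallers with PLS-123 were near the background. TNFSF10, the death ligand TRAIL, read 6.48, 6.53 and 6.20 with PLS-123, 5.93, 5.88 and 5.81 at 10 μM ibrutinib, 4.01, 4.26 and 4.14 at 1 μM ibrutinib, and 4.09, 4.35 and 3.94 with vehicle. PLS-123 and 10 μM ibrutinib lay well above the others, and the log2 fold change was 2.28 ± 0.12 (adjusted p = 1.92e-08) and 1.74 ± 0.12 (adjusted p = 2.92e-07). IFITM2 and IFITM3, the close paralogues of IFITM1, rose by 0.93 ± 0.09 and 0.69 ± 0.09 with PLS-123 (adjusted p = 6.85e-06 and 9.35e-05). As for IFITM1, the probe sets may share signal between the copies, so these rises may not be separate. PLSCR1, a membrane protein with antiviral activity, rose by 0.62 ± 0.08 with PLS-123 (adjusted p = 0.000135) and by 0.61 ± 0.08 with 10 μM ibrutinib (adjusted p = 0.000207). The genes named here were picked by the smallest adjusted p with PLS-123, and none of those that fell is among them.

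**Figure D5:**
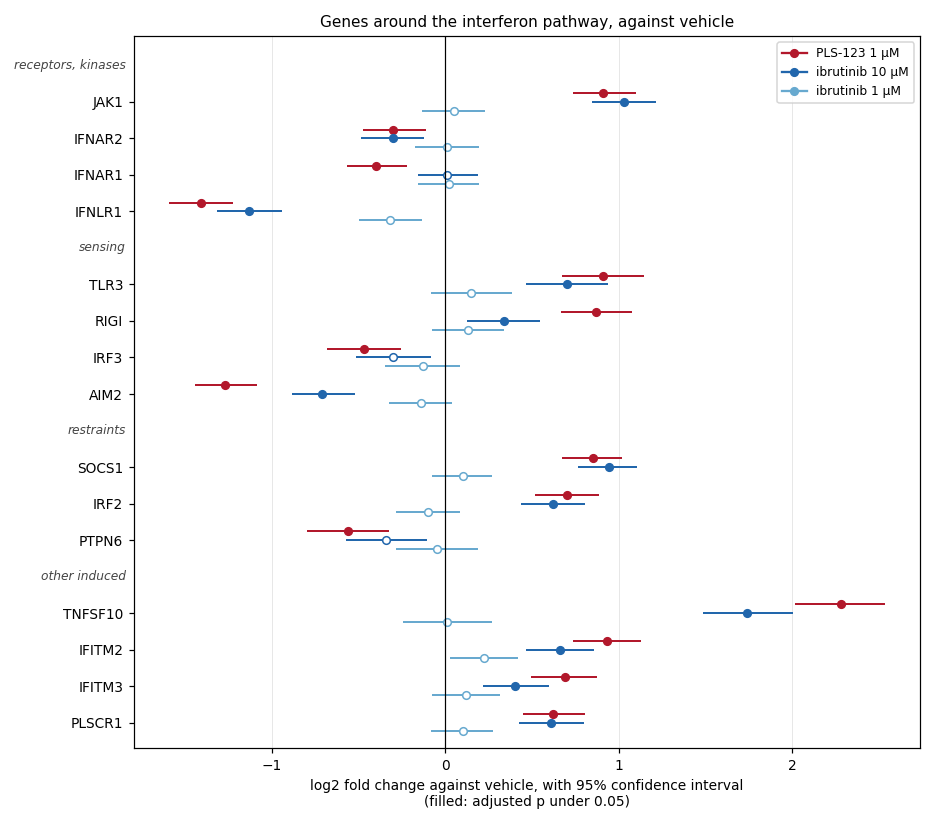
Log2 fold change against vehicle (horizontal axis) of 15 genes around the interferon pathway, for 1 μM PLS-123, 10 μM ibrutinib and 1 μM ibrutinib. Points are limma estimates from 3 arrays per group, lines are 95% confidence intervals and filled points have an adjusted p under 0.05. TNFSF10 stands farthest to the right at 2.28 with PLS-123 and IFNLR1 farthest to the left at -1.41, and the points of 1 μM ibrutinib are all open.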

How the data were processed

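Total RNA of 12 samples was labelled as biotinylated cRNA and hybridized to U133 Plus 2.0 arrays. Per the labels, the authors processed the arrays with RMA, whose version is not given in the sources used here, and deposited 1 intensity per probe set and array. These intensities are linear, from 2.0904 to 15751.3865, so log2 was taken and nothing was added. The number of arrays limits the precision. After 62 controls were removed, limma 3.58.1 (R 4.3.3) was fitted to 54613 probe sets with 1 mean per group, 8 residual degrees of freedom, eBayes moderation and two-sided p-values adjusted by Benjamini-Hochberg within each comparison. The array annotation gave 41091 probe sets 1 symbol, 1801 several and 11721 none. The fit was tested on simulated data.

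The members and lists were chosen with earlier results of these data known. A gene was given with all its arrays when it was above the dim limit and among the 5 largest rises or 5 largest falls at an adjusted p under 0.05 with PLS-123 or 10 μM ibrutinib; OAS1, TRIM22, MX2, IFI27, IFIT3 and TNFSF10 were added after their values were seen. From the other lists, up to 4 called genes with the smallest adjusted p with PLS-123 were named. As alternatives, the test was replaced by the methods' t-test, by limma restricted to the groups compared or by limma with a trend, the sample letter was added as a replicate block or the ACTB difference as a covariate, the values were quantile normalized or centred on control probe sets, dim probe sets were removed, probe sets of a gene were summarised by their median, and each array was left out. The sample letters A, B and C were not treated as pairs in the main fit. Array annotation symbols were matched to RefSeq, and promoter windows are those of RefSeq for GRCh38.p14.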

Additional observations from a re-analysis of the deposited data

How the results depend on the processing

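Of 39 calls of single genes, 17 were kept under every alternative tried. Over all calls and alternatives, 732 of 813 checks kept the call, 81 lost it and none turned the direction. The methods' t-test gave 2 genes for PLS-123 against ibrutinib at 1 μM, IRF1 and MX1, where limma called 10. Over all probe sets it called 731 higher and 1103 lower in that comparison, where limma called 2502 and 4333. It gave 3 genes between the doses of ibrutinib, where limma called 5. Over all probe sets it called 838 and 593 between the doses, where limma called 2304 and 1852. With PLS-123 against vehicle it gave 9 genes, 5 higher and 4 lower, where limma gave 8 and 3. Over all probe sets it called 1733 and 3398 there, where limma called 3476 and 5664. It ended the calls of OAS1, SAMD9L, TRIM22 and the dim HERC5 and IFI27 there (adjusted p = 0.0673, 0.104, 0.108, 0.111 and 0.163). With 10 μM ibrutinib against vehicle it ended those of ISG15, OAS2 and the dim MX2 (adjusted p = 0.0639, 0.0506 and 0.0531). For PLS-123 against vehicle, where limma called 11, the lowest count was 8, with the ACTB covariate. Between the doses of ibrutinib the methods' t-test ended the calls of OAS2, BST2 and the dim MX2 (adjusted p = 0.138, 0.193 and 0.335). Leaving out dim probe sets before the fit gave 8 genes between the doses of ibrutinib. That fit called 2730 higher and 2568 lower of its 27307 probe sets in this comparison. With each array left out in turn, the counts were 9 to 12 for PLS-123 against vehicle, 6 to 9 for 10 μM ibrutinib against vehicle, 8 to 11 for PLS-123 against ibrutinib at 1 μM and 4 to 6 between the doses of ibrutinib. They stayed at 0 for 1 μM ibrutinib against vehicle and for PLS-123 against 10 μM ibrutinib.

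With the sample letter as a replicate block, the counts were 11 for PLS-123 against vehicle, 7 for 10 μM ibrutinib against vehicle, 0 for 1 μM ibrutinib against vehicle, 9 for PLS-123 against ibrutinib at 1 μM, 5 between the doses of ibrutinib and 0 for PLS-123 against 10 μM ibrutinib. Deviations of arrays with the same letter correlated between -0.255 and 0.224, and whether the letters mark pairs was not tested. The causes of these losses were not tested. Precision is limited by 3 arrays per group and, for the 20 dim genes, by signals near background.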

Other observations

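Of the 43 genes, 24 had more than 1 probe set and 19 had 1. In the comparisons with vehicle, the brightest probe set and another disagreed on a call for IFIT3, IFIT2, OAS2, SAMD9L and ISG20, whose values are given above. The 7 B-cell markers had a summed linear intensity of 11880.5 to 12459 with PLS-123, 12303 to 12509.5 with 10 μM ibrutinib, 15749.6 to 16383.2 with 1 μM ibrutinib and 15605.4 to 16293.3 with vehicle. Against vehicle, 2 of them rose and 5 fell with PLS-123 (28.6% and 71.4%, against 11.2% and 19.8% of all genes above the dim limit). With 10 μM ibrutinib 1 rose and 3 fell (14.3% and 42.9%, against 10.4% and 9.03%).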
